A study of Homo sapiens with 33 samples.

Results

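The leukocyte immunoglobulin-like receptors (LILRs) are a family of cell surface receptors of white blood cells, and 8 of their genes were followed here: LILRA1, LILRA2, LILRA5, LILRA6, LILRB1, LILRB2, LILRB3 and LILRB4. They were taken by symbol, 8 of the 85160 genes in the count table, and 7 of the 8 passed the filter on low counts. LILRB4 did not. RNA was measured in NB4, an established human line of acute promyelocytic leukaemia, in which myeloid cells are held at the promyelocyte stage. Cells were collected untreated (0 h), or after 4, 12, 24, 72 and 120 h with the solvent DMSO or with 1 µM ATRA (all-trans retinoic acid), a derivative of vitamin A under which promyelocytic leukaemia cells mature, and fresh drug was given on day 3. These 11 groups held 3 biological replicates each (33 libraries), all from 1 cell line, so the spread is that between cultures of NB4. The untreated libraries carried the promyelocyte markers: the 8 listed genes, led by MPO, summed to 12228 to 13429 CPM (counts after scaling for library size), with ELANE, another gene of that stage, at 0.303 CPM.

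LILR proteins fall into activating and inhibitory receptors. The inhibitory ones (LILRB) have long tails with tyrosine motifs that recruit phosphatases such as PTPN6. The activating ones measured here (LILRA) have short tails and signal through the Fc receptor gamma chain, the product of FCER1G. Several of them bind HLA class I molecules, and on monocytes, macrophages and granulocytes they set the threshold for activation.

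The 8 genes lie on chromosome 19 (GRCh38) in 2 neighbouring clusters, and their deposited gene models overlap. LILRB3 (54213803 to 54277923), LILRA6 (54219166 to 54242791), LILRA5 (54241637 to 54313147) and LILRB2 (54273796 to 54281184) are on the minus strand. LILRA2 (54572920 to 54599492), LILRA1 (54573879 to 54603572), LILRB1 (54593632 to 54637528) and LILRB4 (54643860 to 54673161) are on the plus strand. Counting gave a fragment to every gene whose exons it touched, so genes that share exon bases also share fragments. LILRA6 shares the most with another member, 1101 of its 2798 exon bases with LILRB3, and 242 bases are common to LILRA5, LILRA6 and LILRB3. LILRA1 and LILRA2 share 954 bases, LILRB2 and LILRB3 share 376, and LILRA1 and LILRB1 share 150. LILRB3 also shares 2295 of its 10316 exon bases with LILRB5, a receptor gene with 43 fragments in all libraries together. A gene model with no symbol in the reference table, ENSG00000248166, covers 1174 of the 2067 exon bases of LILRA5 and 1650 of the 3907 of LILRB2, and holds 6032 fragments. Of 150-base windows along the transcript, the read length, LILRA2 had 16.31% identical in the transcript of another gene (AC245036.5, with which its model shares 847 exon bases), LILRA6 5.74% and LILRB3 4.96%, and fragments that map equally well to several places were not counted. Levels of LILRA6 and LILRB3 are therefore uncertain. Bounds from taking off all fragments of an overlapping gene are given for some members. None was computed for LILRA5 or LILRB2 against ENSG00000248166 or for LILRA2 against AC245036.5, and none is informative for LILRA1, since LILRA2 held more fragments in each library. The same holds for LILRB1 against LILRA1, which held more fragments than LILRB1 in each library.

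**Figure D1:**
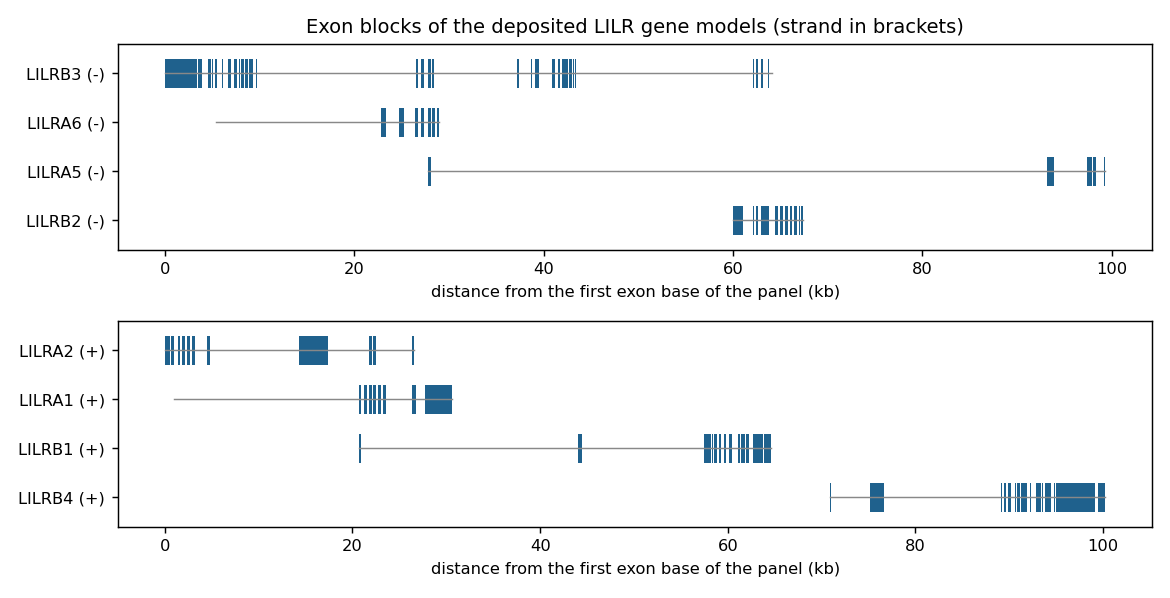
Exon blocks (boxes) of the 8 LILR gene models as the count table defines them, with the distance in kb from the first exon base of each panel on the x axis and the strand in brackets. The LILRB3 model runs through the LILRA6 and LILRB2 loci, LILRA5 has an exon inside LILRA6, and LILRA1 and LILRA2 interleave.

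Start regions are shown for 5 members that cover the range of responses described below: LILRA5, LILRB3 and LILRB2, which had large changes after 120 h of ATRA, LILRA2, which led the family in untreated cells, and LILRB4, which gave almost no fragments. Each covers 300 bases around an annotated start, most of them upstream (RefSeq, GRCh38.p14), and 7 of the 8 members had an entry. Capitals mark matches, on either strand, to GAGGAA (a core preferred by the myeloid factor PU.1), CAGGAA (a core shared by ETS factors), TTGCNNAA (C/EBP factors) or AGGTCA (a core site of nuclear receptors, retinoic acid receptors among them).
LILRA5, chr19:54313117-54313416, minus strand: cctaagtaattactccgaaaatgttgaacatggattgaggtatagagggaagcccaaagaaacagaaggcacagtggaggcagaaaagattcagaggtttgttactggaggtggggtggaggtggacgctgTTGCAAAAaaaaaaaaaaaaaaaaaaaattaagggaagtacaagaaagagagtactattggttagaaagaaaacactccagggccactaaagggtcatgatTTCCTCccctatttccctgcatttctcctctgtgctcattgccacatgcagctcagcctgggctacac
LILRB2, most upstream start, chr19:54281061-54281360, minus strand: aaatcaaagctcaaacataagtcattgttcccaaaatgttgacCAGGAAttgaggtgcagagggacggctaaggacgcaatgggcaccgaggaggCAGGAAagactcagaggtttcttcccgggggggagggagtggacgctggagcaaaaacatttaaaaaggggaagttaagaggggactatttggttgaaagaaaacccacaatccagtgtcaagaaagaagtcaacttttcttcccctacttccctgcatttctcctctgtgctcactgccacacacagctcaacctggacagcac
LILRB3, chr19:54222958-54223257, minus strand: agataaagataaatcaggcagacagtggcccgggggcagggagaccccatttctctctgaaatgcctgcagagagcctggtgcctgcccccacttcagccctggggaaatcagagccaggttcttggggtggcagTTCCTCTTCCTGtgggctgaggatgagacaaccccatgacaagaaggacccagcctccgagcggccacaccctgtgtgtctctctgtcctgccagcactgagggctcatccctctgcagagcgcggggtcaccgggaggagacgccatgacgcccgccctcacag
LILRA2, most upstream start, chr19:54573540-54573839, plus strand: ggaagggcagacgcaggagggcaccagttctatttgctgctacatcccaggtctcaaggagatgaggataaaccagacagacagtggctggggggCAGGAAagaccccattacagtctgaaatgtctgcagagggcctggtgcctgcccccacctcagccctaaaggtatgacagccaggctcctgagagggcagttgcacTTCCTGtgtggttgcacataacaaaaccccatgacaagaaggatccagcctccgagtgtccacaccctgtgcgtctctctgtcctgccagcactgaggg
LILRB4, chr19:54662735-54663034, plus strand: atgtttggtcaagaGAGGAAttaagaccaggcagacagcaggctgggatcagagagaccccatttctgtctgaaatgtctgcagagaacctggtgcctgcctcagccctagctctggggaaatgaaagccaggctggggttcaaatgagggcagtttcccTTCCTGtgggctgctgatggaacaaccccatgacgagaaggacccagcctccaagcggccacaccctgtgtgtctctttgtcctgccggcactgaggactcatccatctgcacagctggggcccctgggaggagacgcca
Most of the starts resembled others of the family in 1 of 2 ways, and the first LILRB1 start aligned with no other over more than 71 positions. The LILRB2 start shown was 90.7% identical to the first LILRA1 start over 300 aligned positions, and the LILRA5 start was 73.8% identical to it over 305. The LILRB3 start was 83.4% identical to that of LILRA2 and 81.0% identical to that of LILRB4 where they aligned. LILRB4 thus has a start close in sequence to that of LILRB3. GAGGAA was found in the starts of LILRA5, LILRB3 and LILRB4 shown here, and in 27.9% of all 35116 start regions. CAGGAA was found in those of LILRB2, LILRB3, LILRA2 and LILRB4, and in 28.4% of all. In LILRB3 the GAGGAA and CAGGAA matches abut as one run of 12 bases. TTGCNNAA was found only in LILRA5 among the 13 member starts, where it runs into a stretch of A, and in 10.5% of all start regions. AGGTCA was found in none of the 13 and in 13.8% of all. These matches are letters in a window, and binding was not measured.

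In untreated cells the family was represented mainly by LILRA2, an activating receptor. Its level was 9.84, 9.63 and 9.44 CPM in replicates 2, 4 and 5. LILRA1, another activating receptor, had 1.47, 1.45 and 1.36 CPM. LILRB1 and LILRB2, inhibitory receptors for HLA class I, had 0.368 ± 0.095 and 0.238 ± 0.070 CPM (SD, n = 3), and their ranges overlapped. LILRB3 gave 2, 0 and 1 fragments, LILRA5 0, 1 and 1, and LILRA6 and LILRB4 none. Per kb of exon model, LILRA2 stood at 1.52 ± 0.031 CPM and LILRA1 at 0.276 ± 0.011 CPM (SD, n = 3), which was 78.3% and 14.2% of the summed family level. LILRB1 and LILRB2 followed with 3.53% ± 0.81 and 3.12% ± 0.82 (SD, n = 3), which did not differ beyond their spread.

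With ATRA every tested member was higher than with DMSO at 120 h, and the gains differed by orders of magnitude. LILRA5, LILRB3 and LILRA6 rose from almost nothing, LILRB2 from a low level, and LILRA1, LILRA2 and LILRB1 by a few fold. By the quasi-likelihood test of edgeR, with p-values adjusted by Benjamini and Hochberg's method, 7 of 7 tested members were called higher at 120 h, against 34.9% of all 22971 tested genes. LILRA5, LILRA6, LILRB1, LILRB2 and LILRB3 (5 of the 7) passed the filter on low counts only through ATRA libraries, so that the filter favours a gain in them and the counts of members here are descriptions. LILRA6 passed the filter only through the ATRA libraries of 120 h, so its being tested already implied its gain at that time. LILRA1 and LILRA2 passed it without ATRA libraries too. LILRB4 stayed at 0 counts in all 6 libraries of that time. In bulk RNA, more cells with a transcript and more transcript per cell cannot be told apart.

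**Figure D2:**
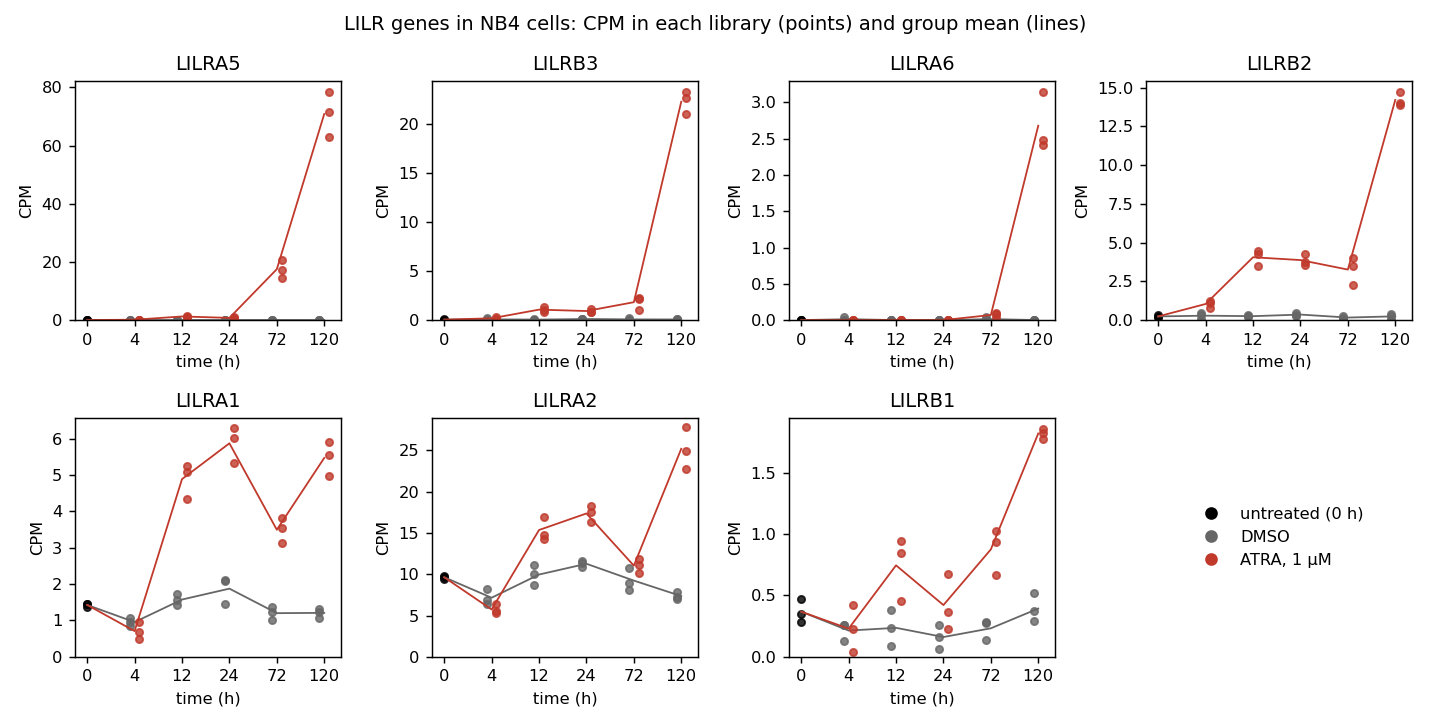
CPM of 7 LILR genes (y axis, a separate scale for each gene) in each library against time in hours (x axis, evenly spaced), for untreated (black), DMSO (grey) and ATRA (red) libraries, with lines through the group means of 3 libraries. LILRA5, LILRB3 and LILRA6 lie near 0 until 72 or 120 h of ATRA, LILRB2 has a first step at 12 h, and LILRA1 and LILRA2 fall back at 72 h before the second rise.

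LILRA5, an activating receptor known from monocytes and neutrophils, changed most. At 120 h the ATRA libraries held 1118, 1721 and 1525 LILRA5 fragments (62.9, 78.3 and 71.4 CPM), and the DMSO libraries held 0, 0 and 1. All ATRA libraries were far above all DMSO libraries, both in the sequencing lane of replicate 2 and in that of replicates 4 and 5. The ratio of summed fragments, scaled by the summed library sizes of each group, was 5529 (adjusted p = 2.9e-30). Its exact 95% interval, from 992 to 218451, covers counting error only and is wide because of the single DMSO fragment. At 72 h the ATRA libraries held 315, 442 and 528 fragments against 0, 1 and 1 (ratio 636, interval 176 to 5258, adjusted p = 9.1e-25). The gain was visible early: 26, 48 and 37 fragments at 12 h against 0, 0 and 1 (ratio 107, interval 18.9 to 4279, adjusted p = 4.8e-11). At 24 h it was 29, 18 and 11 against 0, 2 and 0 (ratio 30.7, interval 8.11 to 259). At 4 h there were 5, 5 and 1 fragments against 0, 1 and 0, a ratio of 10.2 (interval 1.48 to 437) with an adjusted p of 0.0426, and the call was lost without DMSO replicate 2 or 5 or ATRA replicate 2 or 4 of that time (adjusted p up to 0.233). Taking all LILRA6 fragments off LILRA5 left 1075, 1652 and 1472 fragments at 120 h, so the exon shared with LILRA6 accounted for few of them.

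Within the ATRA series LILRA5 moved in 2 stages. It rose from 4 to 12 h by 3.22 ± 0.40 on the log2 scale (SE, adjusted p = 1.6e-08). From 12 to 24 h the difference was -0.73 ± 0.28 (adjusted p = 0.0559), so no change was called. It then rose by 4.53 ± 0.20 from 24 to 72 h (adjusted p = 2.5e-22) and by 2.01 ± 0.13 from 72 to 120 h (adjusted p = 1.1e-16).

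LILRB3 and LILRA6 are a pair of receptors with nearly identical outer domains and opposite signalling tails, inhibitory in LILRB3 and activating in LILRA6. LILRB3 was at 21, 22.6 and 23.2 CPM after 120 h of ATRA and at 0.0827, 0.0411 and 0.0692 CPM with DMSO, with no overlap. The log2 fold change was 8.33 ± 0.38 (SE, adjusted p = 6.7e-22). At 72 h LILRB3 was at 1.02, 2.19 and 2.27 CPM with ATRA and 0.0456, 0.162 and 0 with DMSO (log2 fold change 4.64 ± 0.50, adjusted p = 1.8e-10). At 12 h the ATRA libraries held 30, 33 and 28 LILRB3 fragments and the DMSO libraries 1, 0 and 3 (4.34 ± 0.57, adjusted p = 4.7e-08). At 24 h they held 33, 18 and 21 against 2, 4 and 3 (3.02 ± 0.50, adjusted p = 5.6e-06). After 4 h the counts were 3, 5 and 7 against 0, 1 and 5, which overlap (1.16 ± 0.76, adjusted p = 0.296). With every LILRA6, LILRB2 and LILRB5 fragment taken off, 77, 101 and 142 LILRB3 fragments remained at 120 h of ATRA. Such a bound gave 0 in all other groups and so says nothing about the earlier times.

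LILRA6 was counted almost only at the last time. Its fragments numbered 43, 69 and 53 after 120 h of ATRA and 0 in the 3 DMSO libraries, at least 69.7-fold higher than a floor of 3 counts over the DMSO group (adjusted p = 1.3e-10). Only these ATRA libraries carried LILRA6 over the filter on low counts. Its being tested thus already implied a gain at 120 h, and the p-value is given as a description. At 72 h there were 2, 1 and 2 fragments with ATRA and 0, 1 and 0 with DMSO (ratio 4.95, interval 0.554 to 234, adjusted p = 0.142). No LILRA6 fragment was counted at 4, 12 or 24 h of ATRA. At 12 and 24 h of ATRA LILRB3 held 91 and 72 fragments. Of the 2798 exon bases of LILRA6, 1101 are also LILRB3 exon. LILRB3 held as many fragments as LILRA6 or more in each library, so taking all of them off LILRA6 had to leave 0. That bound therefore cannot tell how many LILRA6 fragments are its own. The LILRA6 counts at 120 h cannot be assigned to LILRA6 transcripts alone.

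LILRB2, an inhibitory receptor for HLA class I and angiopoietin-like proteins, was the member with the firmest early change. At 4 h it stood at 1.10, 0.808 and 1.21 CPM with ATRA and at 0.0857, 0.330 and 0.438 with DMSO, without overlap (log2 fold change 1.79 ± 0.35, SE, adjusted p = 0.00014). At 12 h it was at 4.44, 4.24 and 3.49 CPM against 0.277, 0.177 and 0.306 (4.01 ± 0.30, adjusted p = 2.2e-14). It then held a plateau, with means of 3.87 ± 0.36 CPM at 24 h and 3.26 ± 0.88 CPM at 72 h of ATRA (SD, n = 3), and neither step between 12, 24 and 72 h was called. From 72 to 120 h of ATRA it rose by 2.11 ± 0.19 on the log2 scale (adjusted p = 5.0e-12), to 14, 14.7 and 13.9 CPM. The ATRA over DMSO change was then 5.83 ± 0.28 (adjusted p = 2.9e-21). Every LILRB3 fragment was then taken off LILRB2 in both groups. This left a change of 1.94 at 4 h (adjusted p = 7.5e-05) and of 3.87 at 12 h (adjusted p = 8.8e-13). It left 3.50 at 24 h (adjusted p = 6.05e-12) and 3.83 at 72 h (adjusted p = 2.2e-10). The change was larger than without the removal at 4 and 24 h and smaller at 12 and 72 h. At 120 h of ATRA LILRB3 held more fragments than LILRB2, so the same removal left 0 fragments and says nothing about the change of that time.

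LILRB1, the other inhibitory receptor for HLA class I here, changed less and at low counts. It was at 1.86, 1.77 and 1.83 CPM after 120 h of ATRA and at 0.289, 0.370 and 0.519 with DMSO (log2 fold change 2.18 ± 0.41, SE, adjusted p = 1.2e-05). At 72 h the change was 1.87 ± 0.48 (adjusted p = 0.0009) and at 12 h 1.74 ± 0.47 (adjusted p = 0.0028). At 24 h it was 1.39 ± 0.56 with an adjusted p of 0.0516, from 0.676, 0.364 and 0.223 CPM against 0.161, 0.259 and 0.0628, which overlap. At 4 h the libraries held 6, 14 and 1 fragments with ATRA and 3, 7 and 7 with DMSO (0.16 ± 0.57, adjusted p = 0.884). The difference in response between LILRB1 and LILRB2 is given by these values and was not tested between genes.

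LILRA1 and LILRA2, the members already present before treatment, rose early with ATRA, fell from 24 to 72 h and rose again. LILRA1 was at 5.07, 5.26 and 4.34 CPM after 12 h of ATRA and at 1.42, 1.74 and 1.57 with DMSO (log2 fold change 1.62 ± 0.17, SE, adjusted p = 1.7e-10). It fell from 24 to 72 h of ATRA by 0.75 on the log2 scale (SE 0.15, adjusted p = 4.5e-05) while with DMSO it fell by 0.67 (SE 0.20, adjusted p = 0.0045) over the same step, and the change of its ATRA effect was -0.09 ± 0.26 (adjusted p = 0.814). To 120 h of ATRA it rose again by 0.65 ± 0.16 (adjusted p = 0.00064). At 120 h it stood at 5.91, 5.55 and 4.96 CPM against 1.24, 1.31 and 1.07 with DMSO (2.18 ± 0.18, adjusted p = 5.6e-14).

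LILRA2 was at 14.3, 17 and 14.8 CPM after 12 h of ATRA and at 8.73, 11.2 and 10.0 with DMSO, without overlap (log2 fold change 0.62 ± 0.10, SE, adjusted p = 5.5e-06). From 24 to 72 h of ATRA it fell by 0.65 (SE 0.10, adjusted p = 8.4e-07), and with DMSO by 0.29 (SE 0.11, adjusted p = 0.0248). At 72 h it was at 11.1, 11.9 and 10.1 CPM with ATRA and at 8.90, 10.7 and 8.07 with DMSO, which overlap, and the change of 0.26 ± 0.11 passed narrowly (adjusted p = 0.0400) and was lost without replicate 2 or 5 of DMSO or replicate 2 or 4 of ATRA (lowest 0.17). At 120 h it was at 27.8, 25 and 22.8 CPM against 6.99, 7.88 and 7.19 (1.77 ± 0.11, adjusted p = 6.2e-18). At 4 h LILRA2 was lower with ATRA, 6.36, 5.57 and 5.27 CPM against 8.27, 6.85 and 6.35 (-0.32 ± 0.12, adjusted p = 0.0484), with overlap between the groups. That call was lost without DMSO replicate 2 or 4 or ATRA replicate 4 or 5 (adjusted p up to 0.308).

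The LILRA2 changes of intermediate size may rest partly on fragments shared with LILRA1, and how many were shared was not measured. LILRA1 shares 954 of its 5163 exon bases with LILRA2, so taking off every LILRA1 fragment is the extreme case. With every LILRA1 fragment taken off, the LILRA2 change was 0.32 at 12 h (adjusted p = 0.0194), 0.29 at 24 h (adjusted p = 0.0387), -0.09 at 72 h (adjusted p = 0.53) and 1.68 at 120 h (adjusted p = 2.1e-16). The calls at 12, 24 and 120 h held under this bound, the call at 72 h did not, and the call at 4 h was also lost (-0.30, adjusted p = 0.0778).

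**Figure D3:**
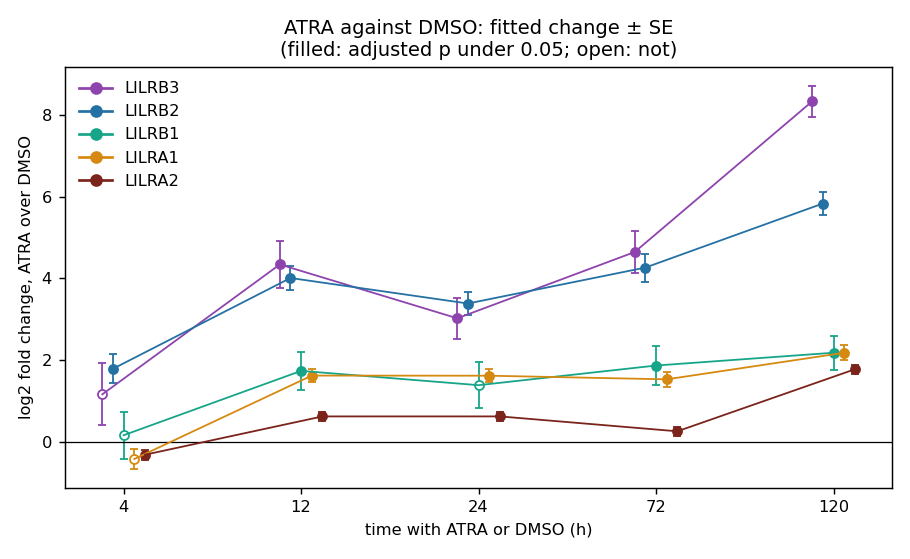
Fitted log2 fold change of ATRA over DMSO (y axis) with its SE for 5 LILR genes against hours of treatment (x axis, evenly spaced), where filled points have an adjusted p under 0.05 and open points do not. LILRB3 and LILRB2 lie above 3 from 12 h on and part at 120 h, while LILRA1, LILRA2 and LILRB1 stay below 2.3 throughout. LILRA5 and LILRA6 are left out because their DMSO groups held 0 to 2 fragments.

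Counted by time, 2 of 7 tested members were called higher at 4 h (LILRB2 and LILRA5), against 12.3% of all genes, and 1 lower (LILRA2), against 12.4%. At 12 h 6 were higher (20% of all genes) and none lower (18.7%), at 24 h 5 were higher (17.4%) and none lower (15.8%), and at 72 h 6 were higher (32.1%) and none lower (32.6%). None was called lower at 120 h, against 35.6% of all genes. From 12 h on no tested member had a value below 0 in this comparison. The median change over the 7 tested members was 0.16 at 4 h, 1.74 at 12 h, 1.62 at 24 h, 1.98 at 72 h and 5.83 at 120 h, beside medians over all tested genes between -0.03 and 0.03. The filter bears on these medians as on the counts.

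The makeup of the family changed with the levels. A fragment shared by members enters the summed level once for each of them. No bound was computed for LILRA5 against ENSG00000248166, so the shares are approximate. Per kb of exon model, LILRA2 held 75.2% ± 2.5 (SD, n = 3) of the summed LILR level after 120 h of DMSO, near its share in untreated cells. After 12 h of ATRA its share was 46.1% ± 2.2, with LILRB2 at 19.8% ± 2.0, LILRA1 at 18% ± 0.92 and LILRA5 at 11.5% ± 0.63. After 72 h of ATRA LILRA5 held 69.8% ± 3.0, and after 120 h 73.8% ± 2.3, between 71.1% and 75.3% in the 3 libraries. LILRA2 was then at 8.63% ± 1.4. In CPM per kb the order at 120 h of ATRA was LILRA5 (34.3 ± 3.7), LILRA2 (3.97 ± 0.40), LILRB2 (3.63 ± 0.11), LILRB3 (2.16 ± 0.11), LILRA1 (1.06 ± 0.092), LILRA6 (0.958 ± 0.14) and LILRB1 (0.340 ± 0.0078). LILRA2 and LILRB2 did not differ beyond their spread, nor did LILRA1 and LILRA6. These places depend on the length used. With the longest GENCODE coding transcript in place of the exon model LILRB3 held 10.4% and LILRA2 7.64% at 120 h of ATRA, and LILRA5 still led with 69.2%. On that scale LILRA1 stood above LILRA6 at 120 h of ATRA without overlap, and above LILRB2 at 12 h of ATRA.

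**Figure D4:**
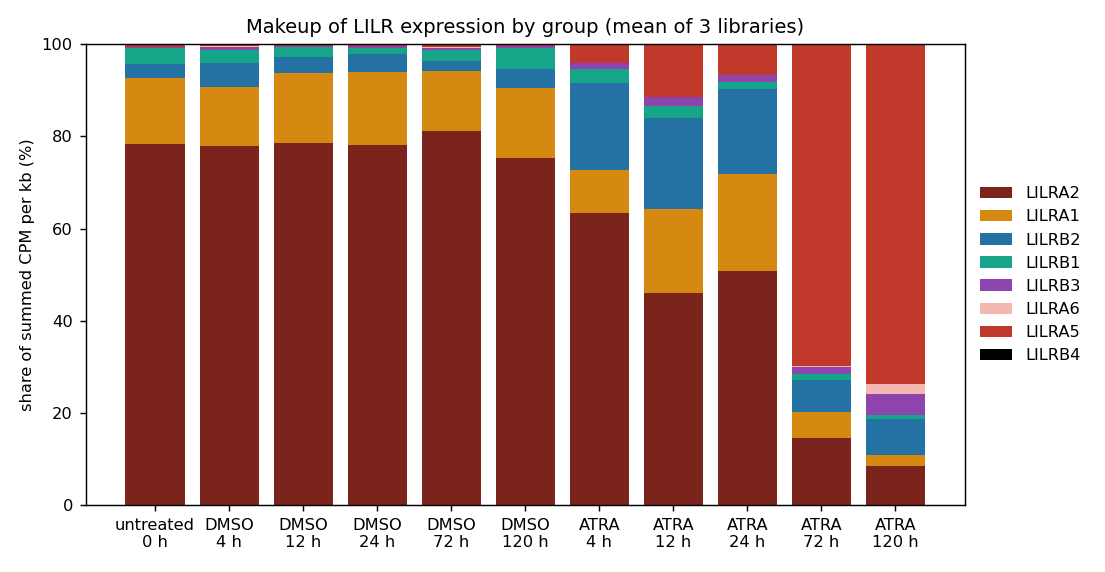
Share of each LILR gene in the summed CPM per kb of exon model (y axis, percent) for the 11 groups (x axis), as means of 3 libraries. LILRA2 has the largest share in untreated and DMSO groups, LILRB2 and LILRA1 gain with early ATRA, and LILRA5 takes 69.8% at 72 h and 73.8% at 120 h of ATRA.

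Whether the ATRA effect itself changed between times was tested by the difference of the log2 changes. From 4 to 12 h it grew for LILRB2 by 2.22 ± 0.53 (SE, adjusted p = 0.003), for LILRA1 by 2.04 ± 0.29 (adjusted p = 1.7e-06) and for LILRA2 by 0.94 ± 0.16 (adjusted p = 3.3e-05), so 3 of 7 tested members grew, against 8.13% of all genes. The LILRB2 call was lost without DMSO replicate 5 of 4 h. From 12 to 24 h no member changed in either direction (6.9% of all genes), none had an unadjusted p under 0.05, and DESeq2 and limma-voom called none. From 24 to 72 h 1 member was called higher (21.5% of all genes), LILRA5 by 4.38 ± 1.84 (adjusted p = 0.0487). In the same step 1 was called lower (24.5%), LILRA2 by -0.36 ± 0.15 (adjusted p = 0.0467). From 72 to 120 h 5 of 7 grew (17.5% of all genes): LILRB3 by 3.68 ± 1.20 (adjusted p = 0.0125), LILRA2 by 1.52 ± 0.15 (adjusted p = 1.6e-10), LILRB2 by 1.57 ± 0.63 (adjusted p = 0.0444), LILRA1 by 0.65 ± 0.27 (adjusted p = 0.0488) and LILRA6 (adjusted p = 0.0294). LILRA5 was not called in this last step (2.89 ± 1.75, adjusted p = 0.199), where its DMSO groups held 2 fragments and 1. LILRA6 entered the test only through its counts at 120 h of ATRA, so growth of its effect into that time was already implied. The late steps of LILRA5, LILRA6, LILRB2 and LILRB3 rest on few DMSO fragments. In the DMSO groups of 72 and 120 h LILRA2 held 665 and 569 fragments, and LILRA1 held 87 and 93. Without DMSO replicate 4 of 72 h 1 of the 5 calls was left, and without replicate 4 of DMSO or of ATRA at 120 h 3 were left. The LILRA5 call from 24 to 72 h was lost without any of 7 of the 12 libraries, with a value down to 1.76, and the LILRA2 call without any of 8, and the libraries are named in the closing section. The LILRA2 call was also lost under limma-voom, DESeq2, RLE size factors, no filter, FANTOM CAT models left out, groups fitted alone and shared fragments removed (adjusted p from 0.0514 to 0.117), and the LILRA5 call under the replicate block, groups fitted alone and no filter (adjusted p from 0.0526 to 0.0567).

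Within the ATRA series alone, 6 of 7 tested members rose from 4 to 12 h (18.7% of all genes) and none moved from 12 to 24 h (19.7% in either direction). In that step LILRA5 alone had an unadjusted p under 0.05, and it was called lower by DESeq2, though not by limma-voom, and without ATRA replicate 2 of 24 h. From 24 to 72 h 4 rose (31.2% of all genes: LILRA5, LILRB3, LILRB1 and LILRA6, the last from 0 fragments to 5) and 2 fell (30.7%: LILRA1 and LILRA2). Without ATRA replicate 5 of 24 h 2 of those 4 were called. From 72 to 120 h 7 of 7 rose (25.1% of all genes), among them LILRA6, which entered the test only through its counts at 120 h of ATRA and so had to rise. LILRA6 started that step from 5 fragments. Among the other 6 LILRB3 had the largest difference, 3.59 ± 0.24 on the log2 scale (adjusted p = 5.2e-16). Libraries of 0, 4 and 12 h were sequenced in another lane than those from 24 h on, so the step from 12 to 24 h cannot be told apart from the lane.

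With all libraries in the fit, the falls called without ATRA were in LILRA1 and LILRA2. LILRA5, LILRA6, LILRB1, LILRB2 and LILRB3 held at most 31 fragments in any untreated or DMSO group. A change in these 5 could therefore hardly be called, and the absence of calls does not show that they were stable. Against untreated cells, 2 of 7 tested members were lower after 4 h of DMSO (15.7% of all genes): LILRA2 by -0.43 ± 0.11 (SE, adjusted p = 0.0032) and LILRA1 by -0.58 ± 0.21 (adjusted p = 0.0343). The LILRA1 call was lost without any 1 of the untreated libraries, or without DMSO replicate 4 or 5, which left 1 call. After 120 h of DMSO 1 was lower (9.58% of all genes), LILRA2 by -0.39 ± 0.11 (adjusted p = 0.0111), a comparison in which time and lane cannot be told apart and which was lost without DMSO replicate 5. None was called at 12, 24 or 72 h of DMSO, where 22.7%, 19.1% and 51.6% of all genes were called in either direction. At an unadjusted p under 0.05 there were LILRA1 and LILRA2 at 24 h, both higher, and none at 12 or 72 h, while DESeq2 and limma-voom called none. Without DMSO replicate 2 of 24 h 1 was called higher. From 24 to 72 h of DMSO 2 fell (25.5% of all genes), LILRA1 by -0.67 ± 0.20 (adjusted p = 0.0045) and LILRA2 by -0.29 ± 0.11 (adjusted p = 0.0248), the latter lost without DMSO replicate 4 of 24 h or replicate 2 or 5 of 72 h. From 72 to 120 h of DMSO LILRA2 fell by -0.33 ± 0.11 (adjusted p = 0.0198), 1 of 7 members against 18.7% of all genes, and this was lost without replicate 4 of 72 h or replicate 2 of 120 h. LILRA5 never exceeded 2 fragments in a DMSO library and LILRB3 never exceeded 5.

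LILRB4, an inhibitory receptor known from monocytes and monocytic leukaemia, gave 2 fragments in all 33 libraries together, both in DMSO libraries of 12 h. In the ATRA group at 120 h its count of 0 allows at most 0.0491 CPM, taken as 3 counts over the 3 libraries, beside 70.9 ± 7.7 CPM (SD, n = 3) of LILRA5 in the same libraries. Little of its transcript is ambiguous: 1.14% of its 50-base windows and none of its 150-base windows were identical in the transcript of another gene. Of the remaining LILR genes, LILRA4, LILRB5, LILRP1 and LILRP2 had 30, 43, 32 and 9 fragments in all libraries and were not tested, and LILRA3 was not analysed here.

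Genes of the same pathway were taken as lists. Of 12 tested genes for LILR ligands, 8 were higher and 2 lower with 120 h of ATRA, beside 34.9% higher and 35.6% lower of all genes, with a median log2 change of 3.59. HLA-E, an HLA class I molecule, was at 1438 CPM against 119 (3.59 ± 0.07, SE, adjusted p = 1.3e-34), HLA-C at 2911 against 239 (3.61 ± 0.08) and HLA-B at 4161 against 344 (3.6 ± 0.08). BST2, a membrane protein induced by interferon, was at 376 CPM against 31.2 (3.59 ± 0.08). HLA class I genes are close copies of each other, so their separate counts are uncertain. At 12 h HLA-E had changed by 0.83 ± 0.06, BST2 by 0.88 ± 0.07, HLA-C by 0.68 ± 0.07 and ALCAM, another gene of this list, by -0.84 ± 0.08. Of the 12, 8 were then higher and 3 lower (20% and 18.7% of all genes).

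Of 16 tested adaptors, kinases and phosphatases downstream of these receptors, 14 were higher and 1 lower at 120 h (34.9% and 35.6% of all genes), with a median of 1.46. FCER1G, the partner chain of the activating members, was at 450 CPM against 54.2 (3.05 ± 0.07, SE, adjusted p = 2.1e-31). LYN, a Src family kinase that phosphorylates the tails of such receptors, was at 619 CPM against 47.7 (3.70 ± 0.07), and the related kinase FGR at 616 against 2.76 (7.80 ± 0.14). PTPN6, the phosphatase recruited by the inhibitory members, was at 447 CPM against 99.0 (2.17 ± 0.07), while PTPN11, a related phosphatase, was at 163 against 310 (-0.93 ± 0.06). FGR was also the gene of smallest p on this list at 4 h, at 71.9 CPM against 1.90 (5.25 ± 0.15).

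Of other paired receptors of myeloid cells, 20 of 23 tested genes were higher and 2 lower at 120 h (34.9% and 35.6% of all genes), with a median of 3.54. SIRPA, the receptor for CD47, was at 1529 CPM against 68.5 (4.48 ± 0.08, SE), CLEC7A, a receptor for fungal glucans, at 133 against 0.220 (9.21 ± 0.23), and SIGLEC5 at 209 against 10.8 (4.28 ± 0.11). PECAM1 was at 244 CPM against 23.4 (3.38 ± 0.08). Of 20 tested neighbours in the leukocyte receptor complex region that are not LILR genes, 9 were higher and 5 lower, near the shares of all genes (34.9% and 35.6%), with a median of 0.15. NLRP12 was at 153 CPM against 1.07 (7.17 ± 0.16) and FCAR, the receptor for immunoglobulin A, at 71.7 against 2.83 (4.66 ± 0.17). OSCAR and MBOAT7 changed by 1.94 ± 0.10 and 1.75 ± 0.09. FCAR and OSCAR stand on both of these lists, and LAIR1, an inhibitory collagen receptor of both lists, was lower (-0.45 ± 0.07, 42.9 CPM against 58.4).

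Markers of monocytes and macrophages moved with the late LILR gains. Of 10 listed markers 9 were tested, 8 of them higher and 1 lower at 120 h (34.9% and 35.6% of all genes), and their summed level was 642 to 749 CPM with ATRA against 57.2 to 61.6 with DMSO. At 72 h it was 344 to 398 CPM against 52.4 to 61.9. Over all libraries CD68 held the most fragments of this list, 54475, and CD14, a coreceptor of monocytes, held 720. CD14 was at 10.6 CPM against 0.0411 at 120 h, a small part of the sum of that time. The summed promyelocyte markers went the other way, 897 to 1206 CPM against 9708 to 11856. The summed markers of lymphocytes and NK cells were at 338 to 398 CPM against 45.3 to 61.0, nearly all from NKG7 (343 CPM) and CD79A (25.4 CPM), with 2 of the 10 markers at 0. The part of these in the LILR values was not tested.

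The genes whose profile over the 33 libraries was most like that of a member, by Pearson's r of log2 CPM among genes with an average log2 CPM of at least 1, are given as a description, since all libraries share the time course. For LILRA5 they were MOV10 (r = 0.988), IFI35 (0.987) and ST20 (0.986). For LILRB2 they were CEBPE (0.960), TAPBPL (0.959) and THEMIS2 (0.957), and for LILRB3 PLEK (0.968), VAV1 (0.968) and CTSZ (0.968). LILRA6 was most like FNIP2 (0.974), ATP6V1B2 (0.974) and S100B (0.972), values that rest almost only on the libraries of 120 h of ATRA. LILRA1 was most like FAR2 (0.937), SVIL (0.931) and ZC3H12D (0.929), LILRA2 like PDXDC1 (0.911), SLC12A9 (0.910) and SLC8B1 (0.901), and LILRB1 like WSB2 (0.860), HEIH (0.842) and SUN2 (0.838). By Pearson's r no gene stood among the first 3 of more than 1 member, while by Spearman's rho AC009779.2 did so for LILRA1 and LILRA2, and CMIP for LILRB2 and LILRB3. The lists depended on the measure. By Spearman's rho none of the genes named was kept for LILRA1, LILRA5, LILRA6 or LILRB3. Only SLC12A9 was kept for LILRA2, WSB2 for LILRB1 and THEMIS2 for LILRB2.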

How the data were processed

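Counts are raw fragments per gene, made by the authors with featureCounts 1.5.1 (reverse-stranded, paired ends, overlapping genes each counted, multi-mapping fragments not), per the file headers. The annotation joined Ensembl and FANTOM CAT models on GRCh38. The submitters' processing notes name Trimmomatic 0.36, STAR 2.5.2b and Subread 1.5.1. Library totals ran from 18341456 to 33490654.

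The deposited counts were tested with edgeR 4.0.16 (R 4.3.3): filterByExpr (22971 genes), TMM scaling, 1 quasi-likelihood fit over all 33 libraries with a mean per group, and Benjamini-Hochberg adjustment at 0.05. Comparisons between times of ATRA were added after the data were seen. A gene in the text is a member, one of the 4 smallest p of a list, or one of the 3 most alike genes. PTPN6 at 120 h, PTPN11, LAIR1, MPO, ELANE, CD14, NKG7 and CD79A were named beyond this rule, after their values were seen. The members and lists were chosen with earlier results of these data known. Each SE was derived from the F statistic. Alternatives used limma 3.58.1 and DESeq2 1.42.0. The pipeline was tested on simulated data. Exact intervals (95%) and floors of 3 counts cover counting error only. P-values measure the spread between replicates of 1 cell line.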

Additional observations from a re-analysis of the deposited data

Results flagged for a closer look

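The ATRA effect differed between neighbouring times for 10 member values, by the test of the difference in edgeR's quasi-likelihood fit. From 4 to 12 h it grew on the log2 scale for LILRA1 (2.04), LILRA2 (0.94) and LILRB2 (2.22). The LILRA1 and LILRA2 calls held without any 1 of the 12 libraries, and that of LILRB2 was lost without DMSO replicate 5 of 4 h.

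From 24 to 72 h it grew for LILRA5 (4.38) and shrank for LILRA2 (-0.36). The LILRA5 call was lost without replicate 4 of DMSO at 24 h, replicate 4 or 5 of ATRA at 24 h, any DMSO library of 72 h, or the ATRA library of replicate 4 at 72 h, and its value ran from 1.76 to 4.99. The LILRA2 call was lost without any replicate of DMSO at 24 h, replicate 2 or 5 of ATRA at 24 h, replicate 4 of DMSO at 72 h, or replicate 2 or 5 of ATRA at 72 h, and its value ran from -0.46 to -0.22.

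From 72 to 120 h it grew for LILRA1 (0.65), LILRA2 (1.52), LILRA6 (7.15), LILRB2 (1.57) and LILRB3 (3.68). The LILRA6 value rests on DMSO groups of 1 and 0 fragments and is not a size. LILRA6 was tested only because of its counts at 120 h of ATRA, so its growth in this step was already implied. Of these, the LILRA2 call held without any 1 of the 12 libraries, and the other 4 were lost without DMSO replicate 4 of 72 h, which held the 1 LILRA6 fragment and 4 of the 5 LILRB3 fragments of its group. LILRB2 was also lost without the 72 h ATRA library of replicate 2, the 120 h DMSO library of replicate 4 or either 120 h ATRA library of replicates 4 and 5, with a value down to 0.58. LILRA1 was lost without any of 9 of the 12 libraries, with values from 0.54 to 0.75. The cause of these dependences was not tested.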

How the results depend on the processing

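Over the settings other than leaving out libraries, 532 member values kept their direction and their side of the threshold, 35 lost the call, 3 gained it and 2 reversed. Of the counts of called members, 293 stayed within 1.5 times while 29 did not. The member values, though not the counts, include the alternative with shared fragments removed, which was not planned. The ATRA over DMSO calls at 120 h held in each setting run. Under limma-voom the count called higher at 4 h was 1 and lower 0, the DMSO count lower at 4 h was 1 and the count whose ATRA effect fell from 24 to 72 h was 0. With the compared groups fitted alone these 4 counts were also 1, 0, 1 and 0, the effect grew from 24 to 72 h for 0 members and from 72 to 120 h for 3. With no filter on low counts 0 were lower at 4 h, 1 was lower with DMSO at 4 h, the effect from 24 to 72 h changed for 0 in either direction and grew from 72 to 120 h for 2, DMSO fell from 24 to 72 h for 1, and ATRA fell from 12 to 24 h for 1 and rose from 24 to 72 h for 2. With mitochondrial genes left out 0 were lower at 4 h and DMSO fell from 24 to 72 h for 1. DESeq2 gave 1 lower with DMSO at 4 h. DESeq2, RLE size factors and leaving out FANTOM CAT models each gave 0 for the effect falling from 24 to 72 h and 1 for ATRA falling from 12 to 24 h. Whether the replicate numbers pair the samples was not settled, and the fit over all libraries did not use them. Of 15 same-number pairs 4 correlated above 0.1, the highest at 0.20, and 10 of 15 correlated best with their own number. With the replicate block the effect grew from 24 to 72 h for 0 members and from 72 to 120 h for 3. LILRB1 at 4 h reversed under limma-voom (-0.19) and LILRA2 at 72 h with shared fragments removed (-0.088), an alternative chosen after seeing the data. Leaving out libraries, LILRB1 at 4 h ran from -0.64 to 0.73. The counts ran from 1 to 2 higher and 0 to 1 lower at 4 h, 0 to 2 lower with DMSO at 4 h, 0 to 1 higher with DMSO at 24 h, 0 to 1 lower with DMSO at 120 h, 0 to 1 in each direction for the effect from 24 to 72 h, 1 to 5 for its growth from 72 to 120 h, 1 to 3 and 0 to 1 for DMSO falling from 24 to 72 h and from 72 to 120 h, 0 to 1 for ATRA falling from 12 to 24 h and 1 to 4 for ATRA rising from 24 to 72 h. Where not stated, the cause was not tested. Depth limits LILRA6, LILRB4 and the DMSO levels of LILRA5 and LILRB3, which rest on 0 to 5 fragments a library.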
